A study of Mus musculus with 6 samples.

Results

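The genes described here build 2 related membrane pathways of macrophages, autophagy and LC3-associated phagocytosis, together with the phagocyte NADPH oxidase. They are 31 genes chosen by symbol from the biology of these pathways, when earlier results of these data were already known. The deposited table holds 13254 genes and lists all 31. They were measured by RNA sequencing in mouse BMDMs, which are macrophages differentiated in culture out of bone marrow precursors. The 3 KO samples came from mice in which the miR-130b/301b cluster of microRNAs is deleted, and the 3 WT samples from wild-type mice; the labels give no age, strain, sex, treatment or driver of the deletion. The series title ties the deletion to the uptake of dead cells and to the resolution of adipose tissue inflammation, so the comparison of KO with WT asks whether transcripts of this uptake and degradation machinery differ between genotypes in cultured macrophages. Nothing in the labels says that the 3 samples of a group are separate animals; each p-value therefore reflects no more than the variation among these samples, some of which may be technical.

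In canonical autophagy the ULK1 kinase complex switches on a class III PI3 kinase complex, ATG9 vesicles and ATG2 proteins supply membrane lipid, and a ubiquitin-like conjugation chain couples proteins of the LC3 and GABARAP family to the growing membrane. LC3-associated phagocytosis uses the same conjugation chain to place LC3 on the single membrane of a phagosome. In mouse macrophages it needs Rubicon and reactive oxygen from the NADPH oxidase, and it does not need the ULK1 complex. It helps macrophages to digest engulfed dead cells without inflammation. MicroRNAs lower transcripts that pair with their seed, so a transcript under direct control of the deleted pair could be higher in KO.

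The deleted miR-130b-3p shares its seed with other microRNAs of the mouse genome, which macrophages without the cluster may still encode. Of these, miR-130a-3p and miR-301a-3p are printed below it, and miR-721, miR-130c, miR-6341 and miR-6389 are not printed. Seed bases 2 to 8 are in capitals, and the sequences are those of RefSeq on GRCm38.p6.
miR-130b-3p: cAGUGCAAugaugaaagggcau
miR-130a-3p: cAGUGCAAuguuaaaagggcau
miR-301a-3p: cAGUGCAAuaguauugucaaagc
The gene of miR-130b-3p lies on chromosome 16 and the mature sequence at chr16:17124071-17124092 on the minus strand. The genes of miR-130a-3p and miR-301a-3p lie on chromosomes 2 and 11. The hairpin of Mir301b holds the same seed AGUGCAA once. The microRNAs themselves were not analysed here. The transcript that hosts the cluster, 2610318N02Rik, was listed at 0 CPM in all 3 KO samples, whereas the WT samples held 1.63, 2.43 and 2.07 CPM.

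A match to the seed, the 7 bases TTGCACT read on the transcript strand alone, occurred in the longest annotated 3′ UTR of 5 of the 31 genes (16.1%), against 12.3% of the 10707 tested genes with a 3′ UTR in GENCODE M21. The 5 were Atg14, Rb1cc1, Atg2b, Atg12 and Atg16l1, with 1 match each. None of the 31 held the longer form TTGCACTA, which 2.56% of those tested genes held. The median 3′ UTR length was 1578 bases for the 31 genes and 1399 for the tested genes. The windows of 26 bases around 4 of the matches are shown because these transcripts are the candidates for direct pairing, with the match in capitals.
Atg14: ggttttgttattTTGCACTggatcca
Rb1cc1: atgtaatatagtTTGCACTttcaatg
Atg2b: cagtgtgactgaTTGCACTccacact
Atg16l1: gtcacacttactTTGCACTttatttt
On GRCm38 these matches lie at chr14:47541350-47541356 (Atg14, minus strand), chr1:6276084-6276090 (Rb1cc1, plus strand), chr12:105617049-105617055 (Atg2b, minus strand) and chr1:87792177-87792183 (Atg16l1, plus strand), each in the 3′ UTR. The match of Atg2b begins 18 bases into its 3′ UTR. Of human ATG2B, miR-130a, which has the same seed, is a reported regulator. A match describes letters and does not show that a microRNA acts there.

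Macrophage identity and possible admixture were read from marker genes. The 8 macrophage markers summed to between 19641 and 20406 CPM in KO and between 17991 and 18631 CPM in WT. Lyz2 was the largest term, and the 7 others, a sum chosen after seeing the data, overlapped, with between 7801 and 8005 CPM in KO and between 7462 and 7947 CPM in WT. By the sign of the fold change 5 were positive (Lyz2, Csf1r, Adgre1, Fcgr1 and Cd14) and 3 negative (Cd68, Itgam and Mertk). The 10 markers of neutrophils and early myeloid cells, of which 9 were listed (Ly6g was the exception), summed to between 177 and 225 CPM in KO and between 198 and 218 CPM in WT. Of the 8 tested, only the myeloperoxidase gene Mpo passed the test, with 4.48, 3.99 and 3.51 CPM in KO and 6.41, 7.55 and 6.69 CPM in WT (BH-adjusted p = 0.0219 by limma). Stromal markers, 6 of 7 listed (Lum was the exception), summed to between 4.67 and 31.9 CPM in KO and between 45.8 and 52.3 CPM in WT, without overlap. Of the 4 tested, 2 (Col3a1 and Postn) passed the test, beside 1.27% of all tested genes. The part of stromal RNA in the values below was not tested. Dendritic markers (3 of 6 listed, with Zbtb46, Xcr1 and Ccr7 the exceptions) summed to between 1.38 and 1.63 CPM in KO and between 1.96 and 2.35 in WT. Lymphocyte markers (2 of 6 listed, Cd79a and Ms4a1) summed to between 0.80 and 1.19 CPM in KO and between 1.42 and 1.81 in WT. Both sums were low and lay lower in KO without overlap.

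None of the 31 genes passed the test between KO and WT, and their fold changes were small. All 31 were among the 11556 genes tested, and 0 had a Benjamini-Hochberg (BH) adjusted p under 0.05 by limma on log2(CPM + 1), where 1.27% of all tested genes did (0.485% higher and 0.787% lower in KO). At an unadjusted p under 0.05 the count was also 0 of 31, beside 12.5% of all tested genes. The smallest adjusted p was 0.442 (Ulk1, limma, BH). Log2 fold changes ran between -0.13 (Rubcn) and 0.10 (Ulk1), with 12 positive and 19 negative. Of all tested genes 50.1% were negative. The median was -0.02 for the 31 genes, against -0.00035 for all tested genes. In absolute size the median was 0.04 for the 31 genes and 0.061 for all tested genes, which were not matched for level. In these bulk samples, fewer cells of a type and less RNA per cell cannot be told apart.

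**Figure D1:**
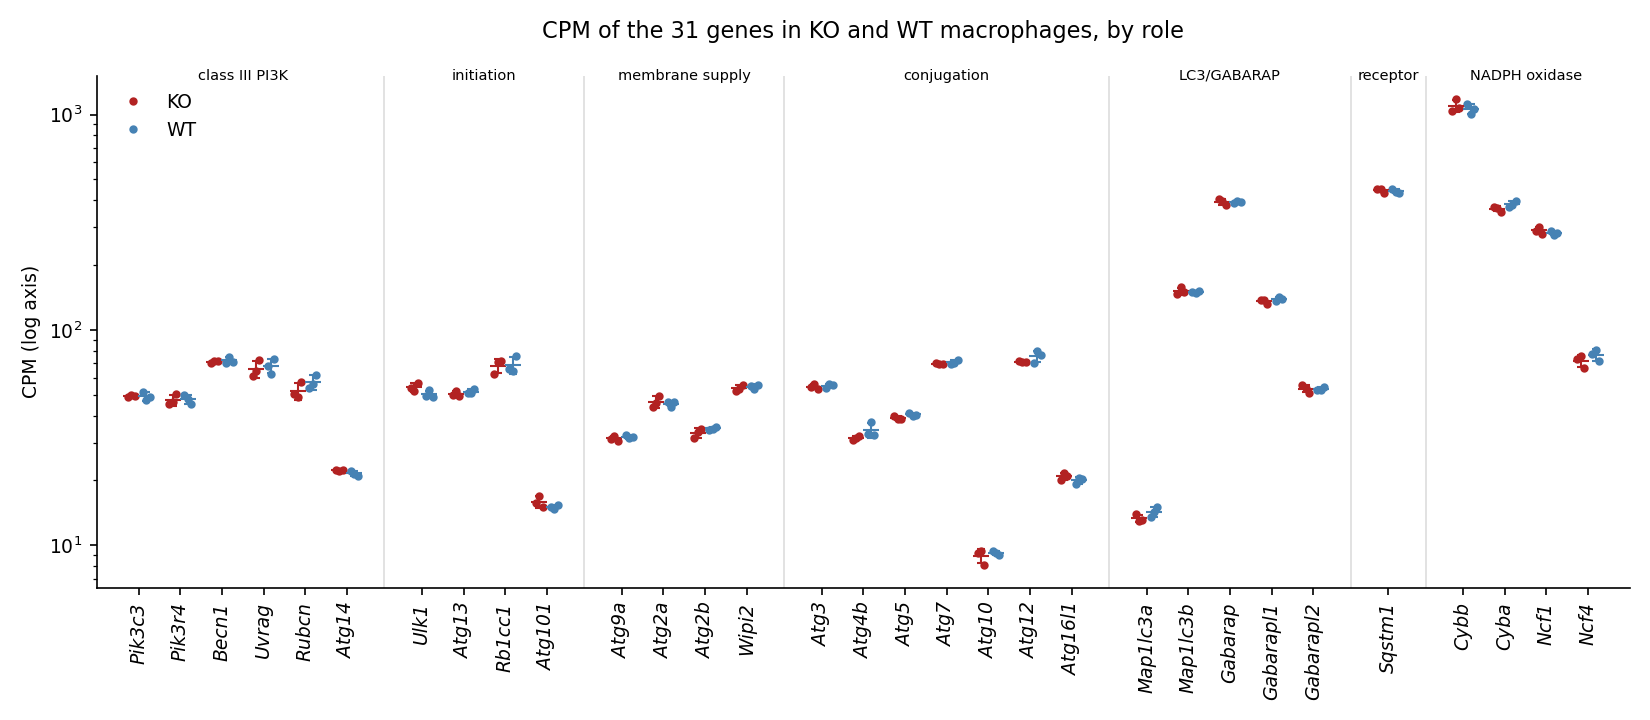
CPM (log axis) of each of the 31 genes, grouped by role, with 1 point for each sample, KO (red) left of WT (blue), and the mean and SD of 3 samples as bars. The 2 genotypes lie almost on top of each other for every gene, while genes span levels between about 9.07 (Atg10) and 1079 CPM (Cybb).

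The intervals give, for 1 gene at a time, the differences that the spread among these samples allows. Some of that spread may be technical, so the intervals need not cover variation between animals. The 95% intervals of limma for a single gene, not adjusted for the number of genes, all included 0 and ran between -0.30 and 0.22 on the log2 scale over the 31 genes. Taken as folds of CPM + 1, the lowest bound was 0.812 and the highest 1.16. For 30 of the 31 genes the whole interval lay within 0.25 of 0, and Rubcn was the exception. The same held for 57.5% of all tested genes. That share was not matched for level, and 26 of the 31 genes lay above the median level of tested genes. Within a genotype, the median coefficient of variation of the 31 genes was 3.49% in KO and 2.58% in WT. For the 8372 tested genes between the lowest and highest mean CPM of the 31, it was 4.28% and 4.07%. Those genes were not matched to the 31 gene by gene, and the part of level in this difference was not tested. Single genes of the 31 ran in KO between 0.357% (Atg14) and 8.91% (Uvrag).

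**Figure D2:**
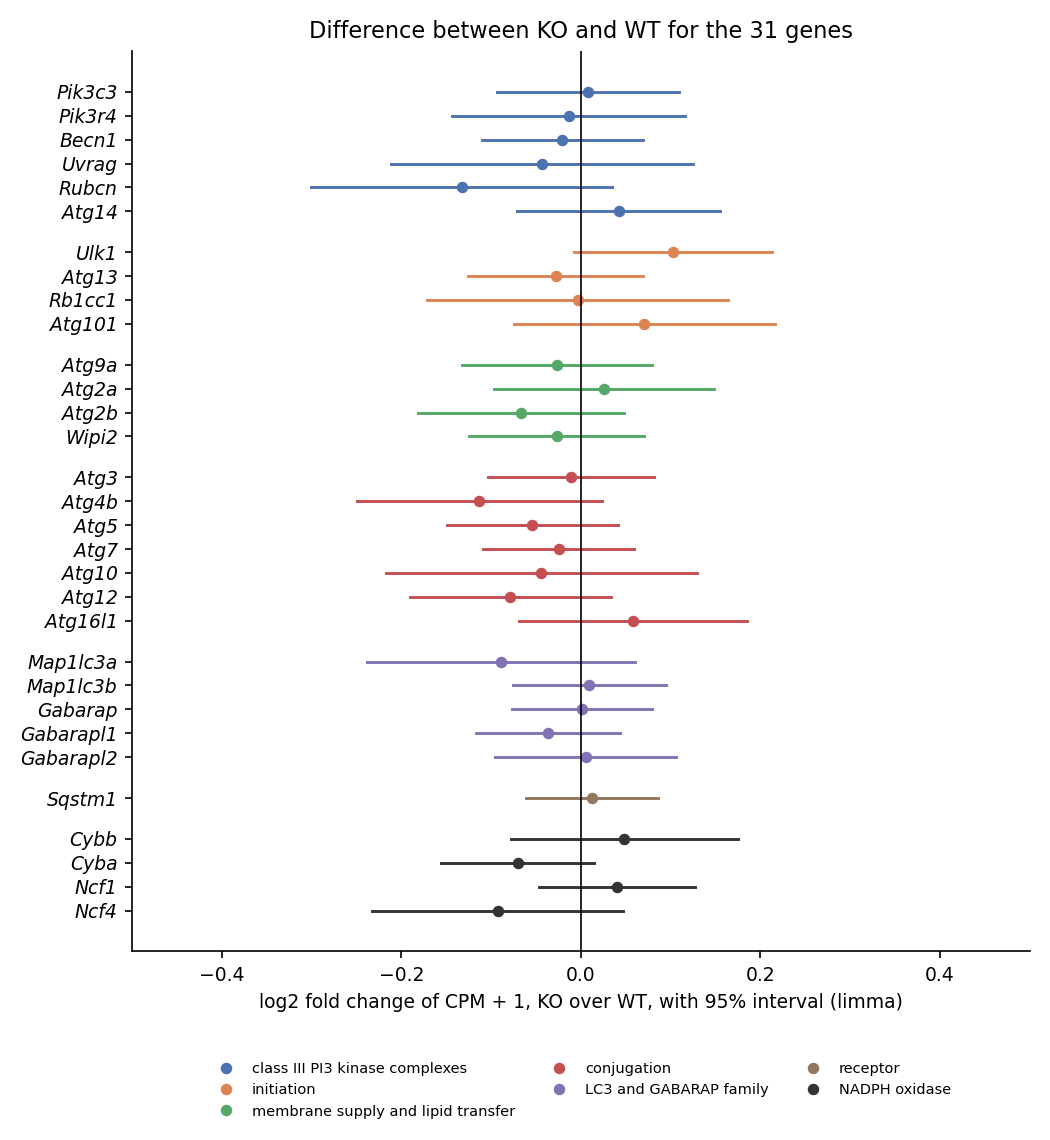
Log2 fold change of CPM + 1, KO over WT (horizontal axis), for each of the 31 genes with its 95% interval from limma (line), coloured by role. Every interval crosses 0; Ulk1 and Rubcn are the farthest points to the right and to the left.

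Rubcn, which encodes Rubicon, the factor that directs the PI3 kinase complex to LC3-associated phagocytosis and restrains canonical autophagy, had the most negative fold change. Replicates 1, 2 and 3 of KO, in that order here and below, held 50.2, 48.7 and 57.3 CPM, and those of WT held 53.6, 56.0 and 61.9 CPM. The groups overlapped through KO replicate 3, and the third replicate was the highest of each genotype. The log2 fold change was -0.13 (SE 0.0736, 95% interval -0.30 to 0.035, BH-adjusted p = 0.504 by limma; exact two-sided permutation p = 0.3). The smallest p that 3 samples against 3 allow in the exact test is 0.1.

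The catalytic and scaffold subunits that both pathways share differed little. Becn1, the regulatory subunit Beclin 1, was the most abundant gene of this role. Becn1 stood at 70.5, 71.7 and 71.4 CPM in KO and at 70.4, 75.2 and 71.3 CPM in WT, with WT replicate 2 the highest (log2 fold change -0.02, 95% interval -0.11 to 0.069). Pik3c3, the lipid kinase VPS34, averaged 49.4 ± 0.559 CPM in KO and 49.1 ± 2.12 CPM in WT (mean ± SD, n = 3 each, here and below). Its membrane anchor Pik3r4 averaged 47.2 ± 2.89 and 47.7 ± 2.26 CPM in KO and WT. Uvrag, which marks the complex used by endosomes and by LC3-associated phagocytosis, ranged between 61.1 and 72.5 CPM in KO and between 62.7 and 72.9 CPM in WT, so its spread within a genotype exceeded the difference of the means.

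Atg14, which marks the PI3 kinase complex of canonical autophagy and carries a seed match, was 1 of 3 genes among the 31 whose KO and WT samples did not overlap, beside 17.7% of all tested genes (8.55% with KO higher, as in Atg14). Atg14 stood at 22.28, 22.16 and 22.32 CPM in KO and at 22.16, 21.52 and 21.09 CPM in WT. The lowest KO sample and the highest WT sample were nearly equal, and the fold change did not pass the test (0.04 on the log2 scale, SE 0.0495, BH-adjusted p = 0.785 by limma). Over the 6 genes of the PI3 kinase complexes, 2 had positive and 4 negative fold changes.

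Among the 4 genes of the initiation complex, Ulk1, the kinase that starts canonical autophagy, had the most positive fold change of all 31 genes. It stood at 53.9, 51.9 and 56.5 CPM in KO and at 49.3, 52.5 and 49.1 CPM in WT. KO replicate 2 lay below WT replicate 2, and the other KO samples lay above every WT sample. The log2 fold change was 0.10 (SE 0.0485, 95% interval -0.008 to 0.21, BH-adjusted p = 0.442 by limma; exact two-sided permutation p = 0.2). Its partners were closer to 0. Rb1cc1, the scaffold FIP200, had the highest CPM of the complex, uncorrected for transcript length. Per kilobase of the longest transcript, Rb1cc1 was the lowest of the 4 on average. Rb1cc1 stood at 62.5, 71.2 and 71.4 CPM in KO and at 65.9, 64.3 and 75.6 CPM in WT. Rb1cc1 carries a seed match, and its log2 fold change was -0.0037 (BH-adjusted p = 0.99 by limma). The adaptor genes Atg13 (50.6 ± 1.51 CPM in KO and 51.6 ± 1.33 in WT) and Atg101 (15.9 ± 0.969 and 15.1 ± 0.318) also overlapped between genotypes.

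The genes that bring membrane to the growing structure overlapped between KO and WT in all 4 cases. Atg2b, a lipid transfer protein whose 3′ UTR has a seed match near its start, stood at 31.5, 33.8 and 34.6 CPM in KO and at 34.5, 34.6 and 35.6 CPM in WT. KO replicate 1 was the lowest sample, and the sign was negative (log2 fold change -0.07, SE 0.0505, 95% interval -0.18 to 0.048, BH-adjusted p = 0.646 by limma). Its paralog Atg2a, without a match, averaged 46.4 ± 2.91 CPM in KO and 45.5 ± 1.30 in WT. Wipi2, which reads the lipid made by the PI3 kinase and recruits ATG16L1, was the most abundant of the 4. Wipi2 stood at 52.0, 53.1 and 55.5 CPM in KO and at 55.1, 53.1 and 55.5 CPM in WT. Atg9a, the scramblase of the seed vesicles, averaged 31.3 ± 0.916 CPM in KO and 31.9 ± 0.670 in WT.

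The 7 conjugation genes are the machinery common to autophagy and LC3-associated phagocytosis, and 6 of them had a negative fold change, none past the test. Their log2 fold changes ran between -0.11 (Atg4b) and 0.06 (Atg16l1), with a median of -0.04. A negative sign was found for 50.1% of all tested genes, and those of Atg3 and Atg10 turned positive without KO replicate 3. Atg12, the ubiquitin-like partner of ATG5, had the highest CPM of the 7, uncorrected for transcript length. Per kilobase of the longest transcript it lay below Atg3, Atg7 and Atg5 on average. Atg12 stood at 71.7, 71.1 and 70.9 CPM in KO and at 70.2, 79.5 and 76.4 CPM in WT, where WT replicate 1 lay below every KO sample. Its log2 fold change was -0.08 (SE 0.0492, BH-adjusted p = 0.563 by limma), a negative sign in a gene with a seed match.

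Atg5 and Atg4b were the other genes whose groups did not overlap, both lower in KO by sign and neither past the test; 9.1% of all tested genes lay apart in that direction. Atg5 stood at 39.9, 38.7 and 38.5 CPM in KO and at 41.2, 40.0 and 40.5 CPM in WT (log2 fold change -0.05, SE 0.0416, BH-adjusted p = 0.656 by limma; exact two-sided permutation p = 0.1). Atg4b, the protease that exposes the conjugation site of LC3 and also strips LC3 from membranes, stood at 30.9, 31.4 and 32.2 CPM in KO and at 32.9, 37.2 and 32.6 CPM in WT. WT replicate 2 was the high sample, and the remaining WT samples lay close to KO replicate 3 (log2 fold change -0.11, SE 0.06, BH-adjusted p = 0.489 by limma; exact two-sided permutation p = 0.1).

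The remaining conjugation genes overlapped between KO and WT. Atg7, the E1-like activating enzyme, stood at 70.3, 69.1 and 69.1 CPM in KO and at 69.5, 70.0 and 72.7 CPM in WT (95% interval of the log2 fold change -0.11 to 0.059). Atg3, the E2-like enzyme that hands LC3 to lipid, averaged 54.5 ± 1.32 CPM in KO and 54.9 ± 1.27 in WT. Atg10, the E2-like enzyme for ATG12, had the lowest CPM of the 31 genes, uncorrected for transcript length (8.92 ± 0.682 in KO and 9.21 ± 0.176 in WT). Atg16l1, which guides the conjugate to its membrane and whose WD40 domain is needed for LC3-associated phagocytosis in mouse cells, was the only conjugation gene with a positive sign. It carries a seed match and stood at 20.1, 21.6 and 20.9 CPM in KO and at 19.2, 20.5 and 20.3 CPM in WT (log2 fold change 0.06, SE 0.0558, BH-adjusted p = 0.733 by limma).

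Taking the 5 genes with a seed match side by side, 2 had positive signs (Atg14 and Atg16l1) and 3 negative (Rb1cc1, Atg2b and Atg12). Their median log2 fold change was -0.0037, against -0.023 for the 26 genes without a match. None of the 5 passed the test.

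The proteins that are conjugated came from 5 genes, and Gabarap was the most abundant. Gabarap stood at 406, 395 and 380 CPM in KO and at 389, 398 and 392 CPM in WT, so that the KO samples spanned the WT samples (log2 fold change 0.0015, SE 0.0342, 95% interval -0.076 to 0.08). Map1lc3b, which encodes LC3B, the usual marker of autophagosomes, stood at 147, 158 and 149 CPM in KO and at 151, 148 and 152 CPM in WT (log2 fold change 0.0094, BH-adjusted p = 0.949 by limma). KO replicate 2 was the highest sample and KO replicate 1 the lowest. Map1lc3a was less abundant and had the most negative fold change of the family (13.3 ± 0.497 CPM in KO, against 14.3 ± 0.757 in WT; -0.09, BH-adjusted p = 0.635 by limma). Gabarapl1 averaged 136 ± 3.05 CPM in KO and 139 ± 3.25 in WT, and Gabarapl2 averaged 53.4 ± 2.12 and 53.2 ± 1.12 CPM. Sqstm1, the cargo receptor p62, whose protein accumulates when autophagy stalls, stood at 451, 449 and 433 CPM in KO and at 449, 438 and 434 CPM in WT. The genotypes overlapped throughout, with a 95% interval of the log2 fold change between -0.061 and 0.086.

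The NADPH oxidase makes the superoxide that LC3-associated phagocytosis requires, and the signs of its 4 genes were mixed, with 2 positive and 2 negative. Cybb, the catalytic membrane subunit gp91phox, had the highest CPM of the 31 genes, uncorrected for transcript length. Cybb stood at 1041, 1180 and 1072 CPM in KO and at 1116, 1007 and 1060 CPM in WT. KO replicate 2 was the highest sample and WT replicate 2 the lowest, and the other samples interleaved (log2 fold change 0.05, SE 0.0554, 95% interval -0.078 to 0.17, BH-adjusted p = 0.782 by limma). The same samples were the highest and lowest in the summed level of 12 interferon-stimulated genes, which was 314, 408 and 301 CPM in KO and 317, 190 and 298 CPM in WT. Gbp2 was lowest in KO replicate 3 (18.95 CPM, against 19.15 in WT replicate 2) and Gbp3 in WT replicate 1 (8.21 CPM), whereas the others were lowest in WT replicate 2. Cybb is known to be induced by interferon gamma. The sum does not tell types of interferon apart, and the part of interferon in the values of Cybb was not tested.

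Cyba, the membrane partner p22phox that stabilises the catalytic subunit, had the opposite sign to Cybb. Cyba stood at 373, 370 and 353 CPM in KO and at 373, 381 and 397 CPM in WT (log2 fold change -0.07, SE 0.0372, 95% interval -0.16 to 0.014, BH-adjusted p = 0.487 by limma). The groups met at KO replicate 1 and WT replicate 1. Of the cytosolic subunits, Ncf1, the organiser p47phox, stood at 289, 302 and 278 CPM in KO and at 286, 277 and 281 CPM in WT (log2 fold change 0.04, BH-adjusted p = 0.73 by limma). Ncf4, which encodes p40phox, the subunit that binds the lipid made by the class III PI3 kinase on phagosomes, stood at 73.1, 75.4 and 66.4 CPM in KO and at 77.6, 80.5 and 71.4 CPM in WT (log2 fold change -0.09, SE 0.0611, BH-adjusted p = 0.581 by limma). The third replicate was the lowest of each genotype for Ncf4, and the groups overlapped. Neutrophils also express these subunits strongly, and their marker sums are given above; their part in the oxidase values was not tested.

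**Figure D3:**
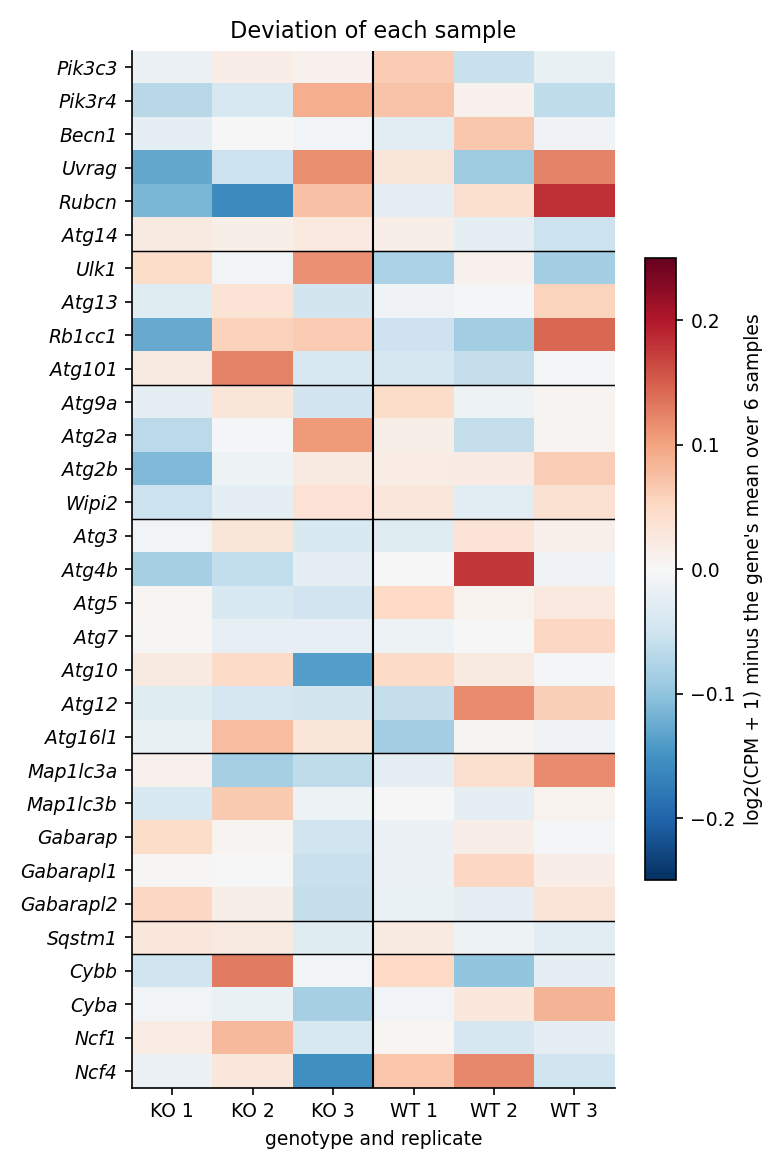
Deviation of each sample from the gene's mean over the 6 samples, in log2(CPM + 1), for the 31 genes in rows (roles separated by lines), with KO replicates 1 to 3 left of WT replicates 1 to 3. Both colours occur within each genotype in most rows; KO replicate 3 is the lowest sample for 12 genes and WT replicate 3 the highest for 9.

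Per unit of length, Cyba, Gabarap, Cybb and Sqstm1 had the highest levels of the 31 genes and Atg14, Atg10, Atg16l1 and Atg2b the lowest, averaged over the 6 samples. Levels here are CPM per kilobase of the longest transcript in GENCODE M21. Cyba stood at 491 ± 14.1 in KO and 516 ± 16.8 in WT, Gabarap at 291 ± 9.68 and 291 ± 3.20, Cybb at 231 ± 15.3 and 223 ± 11.5, and Sqstm1 at 166 ± 3.65 and 165 ± 3.02 CPM per kilobase. Within the conjugated family the order was Gabarap, Gabarapl1 (74.6 ± 1.68 in KO and 76.5 ± 1.78 in WT), Map1lc3b (36.5 ± 1.39 and 36.3 ± 0.459), Gabarapl2 (31.9 ± 1.26 and 31.7 ± 0.669) and Map1lc3a, which lay between 11.7 and 13.5 CPM per kilobase over the 6 samples. Atg2b was the lowest of the 31, at 4.41 ± 0.216 CPM per kilobase in KO and 4.62 ± 0.0821 in WT.

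Of the 30 neighbouring pairs in this order, 14 had ranges over the 6 samples that lay apart and 16 overlapped. The order from Cyba down to Atg5 was apart at each step, whereas Atg5 to Atg101 formed a stretch in which each neighbour overlapped the next. The order depends on the length used. With the mean length of all annotated transcripts of a gene, Cybb came before Cyba, and Atg3 took place 18 in place of place 10.

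**Figure D4:**
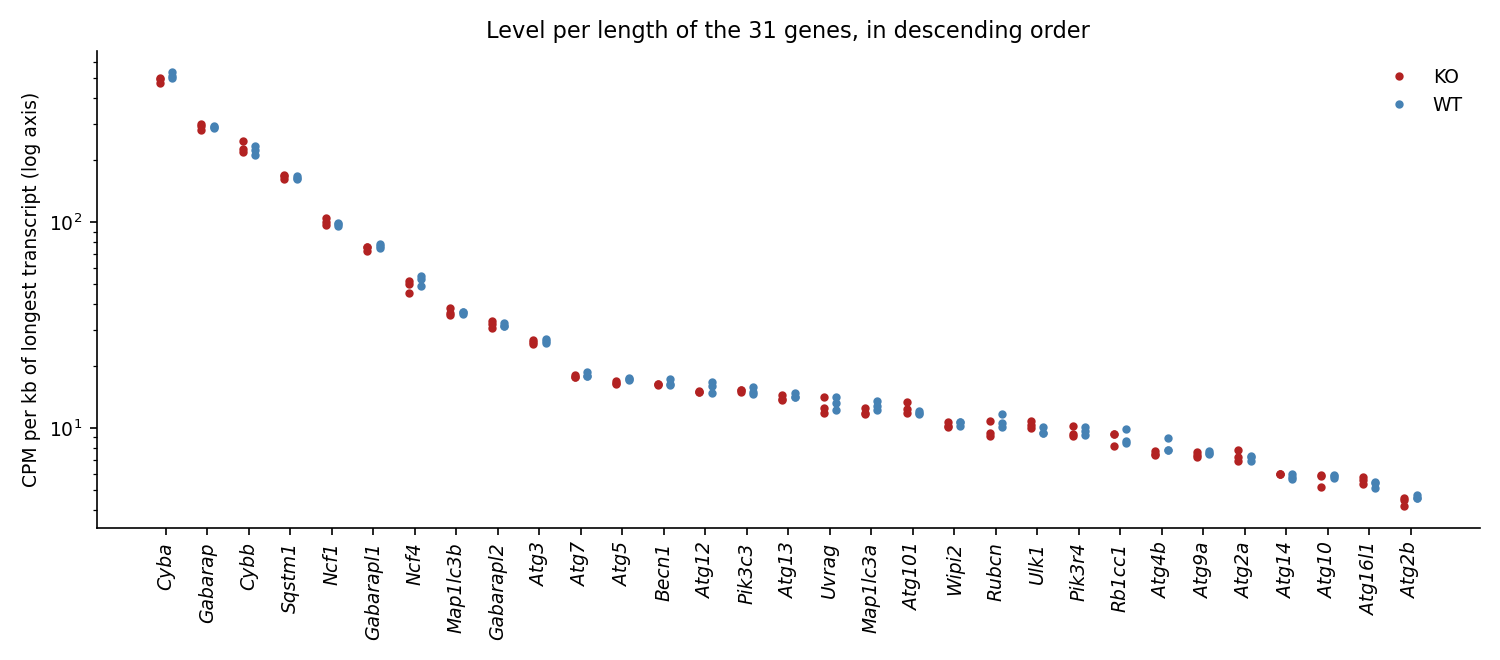
CPM per kilobase of the longest annotated transcript (log axis) for the 31 genes in descending order, with 1 point for each sample, KO (red) left of WT (blue). Levels fall over about 2 orders, between 503 (Cyba) and 4.52 (Atg2b) CPM per kilobase on average, and the genotypes share the same order of magnitude at every gene.

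Further genes of the same pathways were read from 5 lists of 81 genes, of which 76 were listed and 73 tested. None passed the test (0 of 73, limma, BH), beside 1.27% of all tested genes. With an unadjusted p under 0.05 there were 12 of 73, 4 higher and 8 lower in KO, beside 12.5% of all tested genes. The median log2 fold change of the 73 was -0.011.

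The gene nearest to the threshold in these lists was Hvcn1, the voltage-gated proton channel that balances the charge moved by the oxidase. Hvcn1 stood at 60.3, 64.1 and 61.7 CPM in KO and at 71.3, 72.6 and 82.4 CPM in WT, with no overlap (log2 fold change -0.28, SE 0.0586, 95% interval -0.41 to -0.14, BH-adjusted p = 0.0753 by limma). Of the 11 tested oxidase genes and regulators, 3 had an unadjusted p under 0.05, Hvcn1, Cybc1 and Prkcb. Cybc1 and Prkcb were chosen after their values were seen. Cybc1, the chaperone that gp91phox needs to reach the membrane, stood at 71.7, 77.3 and 61.5 CPM in KO and at 58.8, 59.4 and 61.6 CPM in WT. KO replicate 3 lay among the WT samples (log2 fold change 0.22, SE 0.0752, BH-adjusted p = 0.279 by limma). Leaving that sample out widens the difference by its position, and Cybc1 then passed the test (0.31, adjusted p = 0.0426, limma, BH). In that setting 118 of the 11556 tested genes passed. Prkcb, a protein kinase C that phosphorylates p47phox, stood at 190, 196 and 199 CPM in KO and at 209, 221 and 229 CPM in WT (log2 fold change -0.17, SE 0.0405, BH-adjusted p = 0.109 by limma). Prkcb passed the test without WT replicate 1 (-0.21, BH-adjusted p = 0.0413 by limma), where 243 of the 11556 tested genes passed. Neither Cybc1 nor Prkcb passed under any other of the 16 alternative settings given below.

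In each of the other lists the gene with the smallest p also missed the threshold. Of the 13 tested autophagy receptors it was Bnip3l, the mitophagy receptor NIX, at 140, 139 and 130 CPM in KO and 146, 165 and 159 CPM in WT (log2 fold change -0.20, SE 0.0508, BH-adjusted p = 0.153 by limma). The groups did not overlap, and without WT replicate 1 Bnip3l passed the test (-0.24, BH-adjusted p = 0.0437 by limma). Under the other alternative settings Bnip3l did not pass. Among 15 other autophagy genes it was Vmp1, an endoplasmic reticulum protein needed to form autophagosomes, at 66.0 ± 4.10 CPM in KO and 75.0 ± 7.64 in WT (BH-adjusted p = 0.379 by limma). Among 15 genes of fusion with lysosomes it was Vps33a, a subunit of the tethering complex, at 111 ± 4.87 and 102 ± 2.78 CPM (BH-adjusted p = 0.289 by limma). Of the 19 tested genes of the TFEB family and upstream kinases it was Prkab1, a regulatory subunit of AMP-activated kinase, at 29.2 ± 0.135 CPM in KO and 26.0 ± 1.11 in WT (BH-adjusted p = 0.236 by limma).

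**Figure D5:**
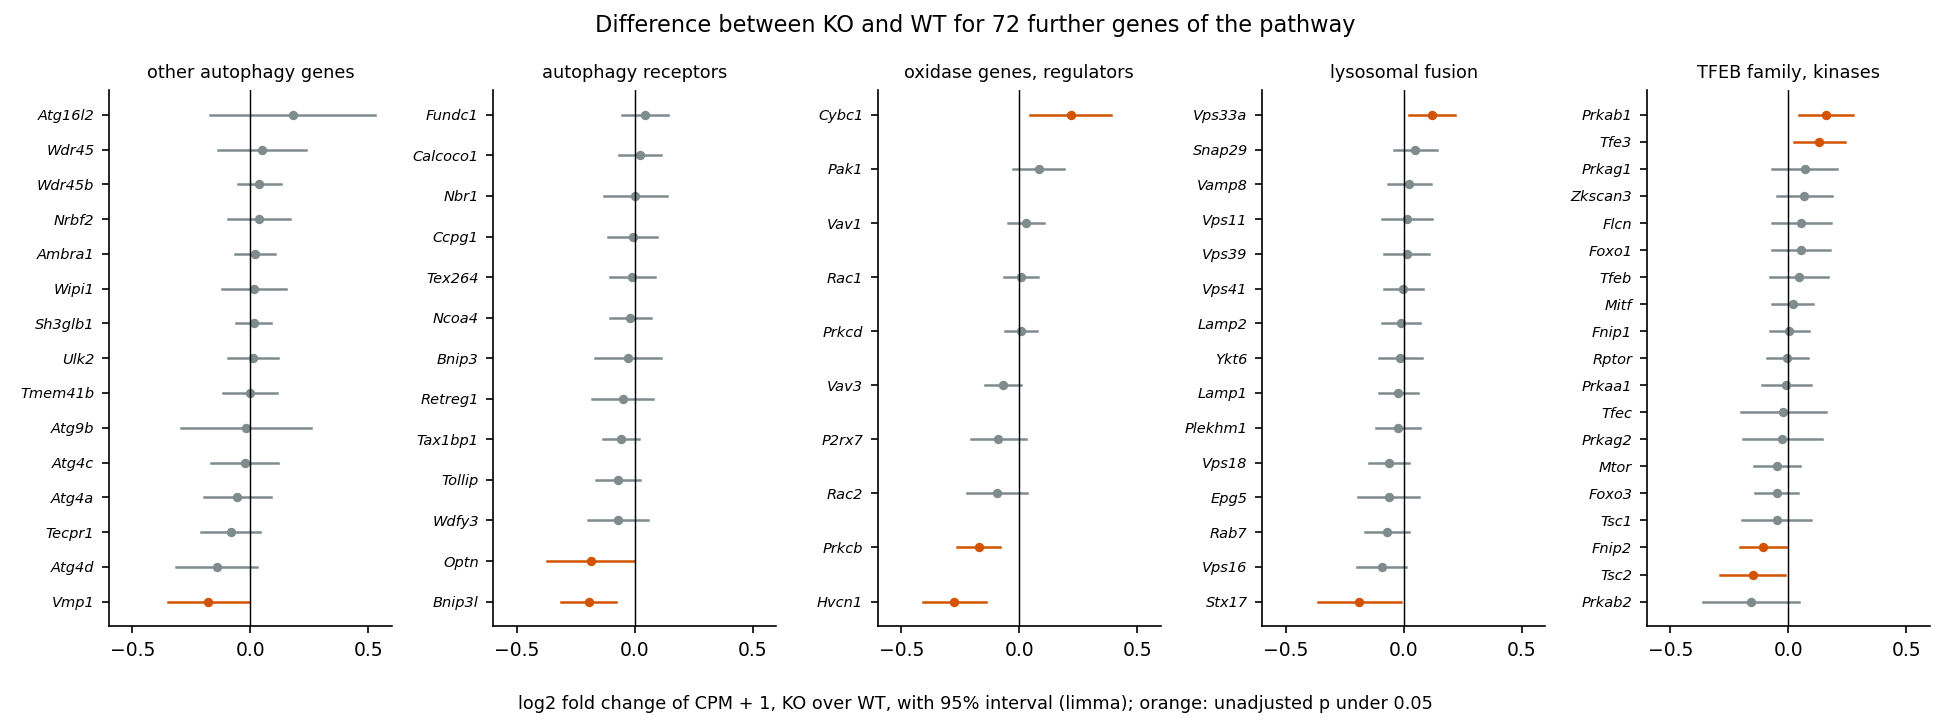
Log2 fold change of CPM + 1, KO over WT (horizontal axis), with its 95% interval from limma, for 72 of the 73 further genes in 5 lists, each sorted by fold change. The 12 genes with an unadjusted p under 0.05 are orange; the farthest of them are Cybc1 (0.22) and Hvcn1 (-0.28).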

How the data were processed

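RNA sequencing libraries of 3 KO and 3 WT samples were compared. The authors deposited 1 table in CPM (counts scaled to library size), per the file headers; its columns sum to between 989223 and 1018258, so a further scaling between libraries was applied. The build is GRCm39, per the submitters' processing notes; aligner, counter and strand setting are not given in the sources used here. Depth in reads is unknown, so no counting interval is given. Some genes are not reported here. A single deposited p-value without a label was not used. No sample column was left unused (0).

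Genes that reached 1 CPM in 3 or more samples entered the test, on log2(CPM + 1) with limma 3.58.1 (R 4.3.3; empirical Bayes, mean-variance trend), two-sided, with Benjamini-Hochberg adjustment over all 11556 such genes and a threshold of 0.05. Folds on this scale understate the change of low genes. Single genes also had an exact permutation test. Text handling used Python 3.11.15.

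Genes given in full were those with an unadjusted p under 0.05, those without overlap, the highest CPM of each role and 14 chosen by name. Of the wider lists they were any past the test and the smallest p. Genes and lists were chosen with earlier results of these data known. Lengths, positions and 3′ UTRs came from GENCODE M21 (GRCm38, another build), which matched 12676 of 13254 identifiers and all 31 genes. In it, exons of Becn1, Gabarapl1, Sqstm1 and Ncf1 overlap those of genes on the opposite strand by 43.9%, 28.3%, 17.3% and 11.1% of their exon bases, so their reads may not be separable without strand.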

Additional observations from a re-analysis of the deposited data

How the results depend on the processing

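None of the 31 genes passed the test under any of the 16 alternatives, and the smallest BH-adjusted p among them was 0.199 (Atg12 without WT replicate 1, limma). In 10 alternatives every library was kept. These added 0.1, 0.5 or 5 to CPM in place of 1, dropped the filter, or required a mean of at least 5 CPM. Others used median-of-ratios factors, quantile normalization, no mean-variance trend, robust moderation or a block for replicate number. Each remaining alternative left out 1 library. Of 496 values of single genes under these alternatives, 471 kept the sign of the fold change and 25 did not, all 25 with a library left out and none over 0.067 in absolute log2 size. Genes with an unadjusted p under 0.05 numbered 0 of 31 in all but 5 alternatives: between 0 and 2 with a library left out, and 1 with the replicate block (Rubcn, limma, unadjusted p = 0.0239, BH-adjusted p = 0.306). Replicate numbers have no stated meaning. Same-numbered samples correlated at 0.00015, 0.083 and 0.065 in their deviations, and differently numbered ones at between -0.082 and 0.028. Values this small cannot show whether the numbers pair the samples. The block gave 142 genes past the test, against 147. That count was 74 without the mean-variance trend and between 55 and 243 with a library left out (63 when KO replicate 1 was left out; for WT replicates 1, 2 and 3 it was 243, 58 and 55). The 12 genes whose sign depended on 1 library had these ranges of log2 fold change with a library left out: Atg10 -0.079 to 0.014, Atg2a -0.022 to 0.065, Atg3 -0.029 to 0.0055, Becn1 -0.039 to 0.0075, Cybb -0.00497 to 0.085, Gabarap -0.021 to 0.027, Gabarapl2 -0.0196 to 0.036, Map1lc3b -0.021 to 0.031, Pik3c3 -0.018 to 0.041, Pik3r4 -0.062 to 0.019, Rb1cc1 -0.048 to 0.067 and Uvrag -0.11 to 0.0098. The median log2 fold change of the 31 genes ranged between -0.029 and -0.0071 with a library left out. The seed match counts were 0 for the 8-base form and 16 for the 6-base form TGCACT (51.6% of the genes, against 37.1% of tested genes). The median level was 14.2 CPM per kilobase by the longest transcript and 28.8 by the mean length. Depth is unknown, so no limit from counting can be given.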

Other observations

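Of the 31 genes, 3 had a gene past the test within 10 tested genes on either side in GENCODE M21, beside 16.5% of the 11279 tested genes with a position: Atg9a (near Cyp27a1), Atg3 (near Cd200) and Sqstm1 (near Gm12191).

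Ratios of levels per kilobase were taken within each sample. Rubcn over Atg14, the markers of the complexes for LC3-associated phagocytosis and for canonical autophagy, was 1.58, 1.54 and 1.80 in KO and 1.70, 1.83 and 2.06 in WT, and the groups overlapped. Ncf1 over Ncf4 was 2.01, 2.03 and 2.12 in KO and 1.88, 1.75 and 2.00 in WT. Gabarap over Map1lc3b was 7.98 ± 0.436 in KO and 8.02 ± 0.185 in WT (SD, n = 3 each). These ratios, 3 of 8 computed, were chosen after their values were seen and were not tested.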
